A study of Mus musculus with 8 samples.

Results

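*Cd3d*, *Cd3e*, *Cd3g*, *Trac*, *Cd4*, *Cd8a*, *Cd8b1*, *Lck*, *Il7r* and *Foxp3* are genes commonly used to identify T cells and their subsets. They were followed by gene name in RNAseq of sorted mG+ (GFP+) cells from adipose tissue and muscle, and all 10 were found among the 54532 genes of the count table. All 10 had a mean of at least 10 counts over the 8 libraries and entered the tests with 16971 genes in all. In these libraries the T cell genes were abundant in subcutaneous adipose tissue (SAT), lower in muscle and lowest in visceral adipose tissue (VAT). *Il7r* was an exception to that order, and *Foxp3* was one in part. On chow, edgeR called VAT lower than SAT in 9 of the 10 members, where 1.87% of all genes were called lower. It called SAT higher than muscle in 1 (0.165% of all genes) and VAT different from muscle in 0 (2.02% of all genes). The calls of VAT against SAT depended on both VAT libraries.

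All mice were females of 8 months carrying the Tie2e-cre driver and the mTmG reporter, which switches cells with Cre activity, and their progeny, from membrane Tomato to membrane GFP. WT mice were TERT+/+ and EC-*Tert*-KO mice were TERTfl/fl littermates, so the controls carried Cre and the reporter as well. Each genotype gave 1 library from each of 4 sources: SAT after high-fat diet (HFD, given between the ages of 1 and 8 months), and SAT, VAT and the gastrocnemius muscle (M) after chow. SAT was the inguinal and VAT the gonadal depot. Tie2 regulatory sequence drives Cre in endothelium, and Tie2-driven Cre lines are also known to recombine in blood lineages. The sort was on GFP alone as far as the labels state, and whether cells of several mice were pooled is not given.

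Library totals ran from 6214269 to 18855772 counts. The floor of 3 counts corresponded to 0.184 to 0.434 CPM (counts scaled to 1e+06 per library after TMM, the unit of all levels unless a scale per kb is named). *Tert*, the targeted gene, had 114 WT and 0 KO counts in HFD SAT, 70 and 11 in chow SAT, 3 and 9 in VAT, and 24 and 7 in muscle. In VAT the counts were therefore not lower in the library labelled EC-*Tert*-KO, at a depth of 3 and 9 counts. The SAT chow WT library stood apart from the others in *Malat1*, a nuclear noncoding RNA, which was at 299 CPM there against 2176 to 6005 CPM in the other 7 libraries. Endothelial markers, which the sort was made for, summed to 280 to 679 CPM in SAT, 1639 to 1948 in VAT and 2007 to 2281 in muscle. The pan-leukocyte marker *Ptprc* (CD45) was at 1229 to 2550 CPM in all 8 libraries.

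T cells recognise antigen through a T cell receptor whose alpha and beta chains pair with the CD3 gamma, delta, epsilon and zeta chains. CD4 marks helper and regulatory T cells and CD8 marks cytotoxic T cells, and both co-receptors bring the kinase LCK to the receptor, where it phosphorylates the CD3 tails. IL-7 receptor signalling maintains naive and memory T cells and is also used by innate lymphoid cells, while FOXP3 specifies regulatory T cells, which are known to reside in adipose tissue.

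The CD3 genes lie together on mouse chromosome 9 (GRCm38). *Cd3g* (ENSMUSG00000002033, 44969572 to 44980431, minus strand) and *Cd3d* (ENSMUSG00000032094, 44981786 to 44987339, plus strand) are transcribed away from each other, with 1355 bases between their starts. *Cd3e* (ENSMUSG00000032093, 44998740 to 45009627, minus strand) follows 11400 bases beyond *Cd3d*. The sequences of 250 bases upstream of the start, from RefSeq on GRCm38.p6, are shown for *Cd3d* and *Cd3g*, the divergent neighbours, and for *Il7r*, the member whose level moved least like the rest. Capitals mark GGAA, the core bound by ETS factors, on either strand (TTCC where it lies on the other strand).
Cd3d, chr9:44981536-44981785, plus strand: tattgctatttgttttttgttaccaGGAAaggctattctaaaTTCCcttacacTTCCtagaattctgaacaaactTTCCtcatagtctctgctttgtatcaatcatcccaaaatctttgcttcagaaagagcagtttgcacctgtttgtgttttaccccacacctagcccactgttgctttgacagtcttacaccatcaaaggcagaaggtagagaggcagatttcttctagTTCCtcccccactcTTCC
Cd3g, chr9:44980432-44980681, minus strand: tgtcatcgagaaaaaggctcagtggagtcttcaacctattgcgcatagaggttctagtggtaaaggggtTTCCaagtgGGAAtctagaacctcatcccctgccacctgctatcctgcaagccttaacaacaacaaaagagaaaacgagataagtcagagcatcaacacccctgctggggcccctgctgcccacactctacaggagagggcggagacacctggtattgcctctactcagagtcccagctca
Il7r, chr15:9529877-9530126, minus strand: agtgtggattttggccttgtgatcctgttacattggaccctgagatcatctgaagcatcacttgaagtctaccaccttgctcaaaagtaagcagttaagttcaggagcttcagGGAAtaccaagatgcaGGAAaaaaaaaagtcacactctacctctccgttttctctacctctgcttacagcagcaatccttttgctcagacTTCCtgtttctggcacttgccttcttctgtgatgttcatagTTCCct

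GGAA was found 6 times upstream of *Cd3d*, 2 times upstream of *Cd3g* and 4 times upstream of *Il7r*. It occurs in 93.4% of the 32851 RefSeq promoters of this length, with a median of 3 matches, so its presence does not set these promoters apart. The start that RefSeq gives for *Il7r* differs by 300 bases from the end of the gene in the count table. Entries existed for 7 of the 10 members. The E-box CANNTG was found in all 7 (66.2% of all promoters), AGATAA in 2 (9.99%) and TGTGGT in 1 (14.05%), with both strands searched. A member was counted if any of its entries matched, whereas the shares are per promoter. *Lck* and *Foxp3* had more than 1 entry, and the *Lck* entry at chr4:129573642-129573891 had 0 E-box matches.

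The tissues and diets differed in all 10 T cell genes, and in 4 when VAT WT was left out or 6 when SAT HFD KO was left out (edgeR quasi-likelihood test of the 4 conditions with genotype as an additive term, adjusted p from 0.00664 for *Cd3e* to 0.0367 for *Foxp3*), against 7.93% of all genes tested. The WT and KO libraries of a condition stand in as its replicates in this test, which leaves 3 residual degrees of freedom, and the p-values measure only the spread between these libraries. All 4 SAT libraries were above both VAT and both muscle libraries in 9 of the 10 members, where 7.21% of all genes had this pattern. *Foxp3* was the exception, since muscle WT (13.0 CPM) was above HFD SAT WT (12.4 CPM). Both muscle libraries were above both VAT libraries in 9 members (33.4% of all genes), with *Il7r* as the exception. In bulk libraries, fewer T cells and less RNA per T cell cannot be told apart.

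**Figure D1:**
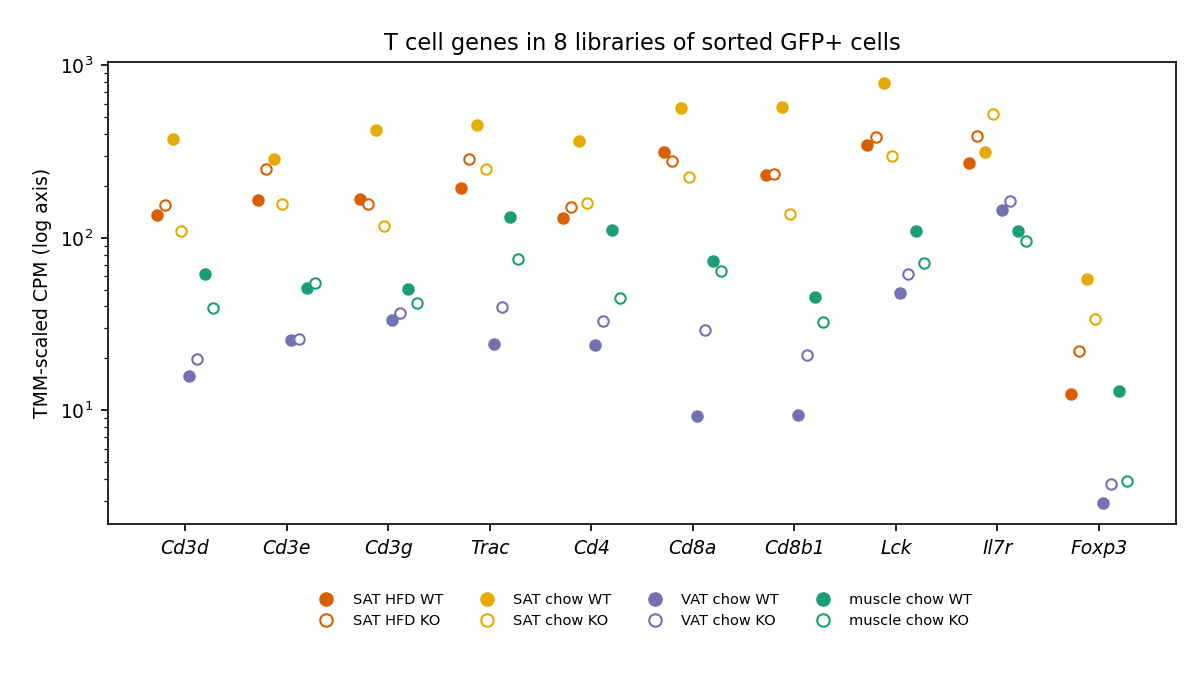
Level of each T cell gene in the 8 libraries, in TMM-scaled CPM on a log axis; filled points are WT and open points are EC-*Tert*-KO, with 1 point per library and no error bars. The 4 SAT libraries lie highest for every gene but *Foxp3*, SAT chow WT is the highest library for every gene but *Il7r*, and both VAT libraries are the lowest for every gene but *Il7r*.

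Among the CD3 genes, *Cd3d* was at 135 CPM (WT) and 156 CPM (KO) in HFD SAT, 373 and 110 CPM in chow SAT, 15.8 and 19.7 CPM in VAT, and 61.8 and 39.2 CPM in muscle. *Cd3e* was at 166 and 250 CPM in HFD SAT, 287 and 158 CPM in chow SAT, 25.6 and 25.9 CPM in VAT, and 51.2 and 54.6 CPM in muscle. *Cd3g* was at 169 and 158 CPM in HFD SAT, 422 and 118 CPM in chow SAT, 33.4 and 36.6 CPM in VAT, and 50.3 and 41.7 CPM in muscle. The 3 CD3 genes thus kept the same order of tissues, and SAT chow WT was the highest library for each. *Cd3e* overlaps 2 annotated genes, *Gm48719* on the opposite strand and *Gm48720* on the same strand, with 295 and 87 counts over all libraries against 13736 for *Cd3e*; strand use in counting is not given, so reads of the pair on opposite strands cannot be assigned with certainty. *Trac* (ENSMUSG00000076928, chromosome 14, 54220521 to 54224206), the constant region of the receptor alpha chain, was at 196 and 285 CPM in HFD SAT, 450 and 250.2 CPM in chow SAT, 24.2 and 39.6 CPM in VAT, and 132 and 75.2 CPM in muscle. Per kb of transcript *Trac* ranked first of the 10 members in 7 of the 8 libraries and second, behind *Il7r*, in VAT WT.

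The co-receptor *Cd4* (ENSMUSG00000023274, chromosome 6, 124864692 to 124888221) was at 131 and 150.2 CPM in HFD SAT, 363 and 159 CPM in chow SAT, 23.9 and 33.0 CPM in VAT, and 112 and 44.7 CPM in muscle. *Cd8a* (ENSMUSG00000053977, chromosome 6, 71373427 to 71379173), the CD8 alpha chain, was at 316 and 280.3 CPM in HFD SAT, 569 and 225 CPM in chow SAT, 9.33 and 29.1 CPM in VAT, and 73.3 and 64.4 CPM in muscle. *Cd8b1* (ENSMUSG00000053044, chromosome 6, 71322788 to 71337494), the beta chain that is mostly restricted to conventional cytotoxic T cells, was at 233 and 235 CPM in HFD SAT, 573 and 138 CPM in chow SAT, 9.44 and 20.9 CPM in VAT, and 45.2 and 32.7 CPM in muscle. The CD8 genes, which lie 35932 bases apart, were the members with the widest span between SAT and VAT. In VAT WT they rested on 84 counts for *Cd8a* and 85 for *Cd8b1*.

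*Lck* (ENSMUSG00000000409, chromosome 4, 129548344 to 129573641), the kinase of the co-receptors, was at 346 and 386 CPM in HFD SAT, 789 and 299 CPM in chow SAT, 47.9 and 61.4 CPM in VAT, and 110.0 and 71.1 CPM in muscle. Per kb it was at rank 2 or 3 among the members in every library. *Il7r* (ENSMUSG00000003882, chromosome 15, 9505788 to 9530176) was at 272 and 391 CPM in HFD SAT, 314 and 521 CPM in chow SAT, 145 and 164 CPM in VAT, and 110.2 and 95.9 CPM in muscle. It was the only member whose highest library was SAT chow KO and the only member that was lowest in muscle. *Foxp3* (ENSMUSG00000039521, chromosome X, 7579676 to 7595243) was at 12.4 and 22.2 CPM in HFD SAT, 57.7 and 34.0 CPM in chow SAT, 2.89 and 3.73 CPM in VAT, and 13.0 and 3.91 CPM in muscle. It ranked last per kb in all 8 libraries, and its VAT values rested on 26 and 51 counts.

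VAT was lower than chow SAT in 9 of the 10 T cell genes, where 1.87% of all genes were called lower, 3.13% higher and 5.0% in either direction. The median log2 difference of the members was -3.31, against -0.13 over all genes tested. *Cd8b1* fell by 4.37 on the log2 scale (SE 0.737, 20.7-fold, adjusted p = 0.0180) and *Cd8a* by 4.33 (SE 0.690, 20.2-fold, adjusted p = 0.0157). *Foxp3* fell by 3.72 (SE 0.699, adjusted p = 0.0263), *Cd3d* by 3.60 (SE 0.555, adjusted p = 0.0144), *Trac* by 3.42 (SE 0.507, adjusted p = 0.0133) and *Lck* by 3.20 (SE 0.498, adjusted p = 0.0148). *Cd3e* fell by 3.10 (SE 0.407, adjusted p = 0.00961), *Cd4* by 3.07 (SE 0.525, adjusted p = 0.0191) and *Cd3g* by 2.78 (SE 0.510, adjusted p = 0.0242). *Il7r*, with a log2 difference of -1.41 (SE 0.343), did not pass (adjusted p = 0.0600). The calls depended on both VAT libraries: without VAT WT none of the 10 passed (adjusted p from 0.0742 to 0.376) and without VAT KO 2 passed, while all 10 differences stayed negative.

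Between chow SAT and muscle, all 10 log2 differences were positive, with a median of 2.30 against 0.11 over all genes tested. *Il7r* was the only member called higher in SAT (log2 difference 1.97, SE 0.350, adjusted p = 0.0446), where 0.165% of all genes were called higher, 1.1% lower and 1.27% in either direction. *Cd8b1* had the largest difference, 3.11 (SE 0.678, adjusted p = 0.0821), and *Cd4* the smallest, 1.75 (SE 0.492, adjusted p = 0.169). The number called ranged from 0 under other scalings to 10 with DESeq2 or with no filter on counts. The share of all genes called under those settings is not given here, so these counts cannot be set against the 0.165%. Between VAT and muscle, edgeR called 0 of 10 members (5 at an unadjusted p under 0.05, DESeq2 2), where 2.02% of all genes were called (0.99% lower, 1.03% higher). The differences of 9 members were negative and that of *Il7r* was 0.56 (SE 0.338, adjusted p = 0.618), with *Cd8a* at -1.82 (SE 0.618, adjusted p = 0.235) and *Trac* at -1.67 (SE 0.476, adjusted p = 0.149).

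**Figure D2:**
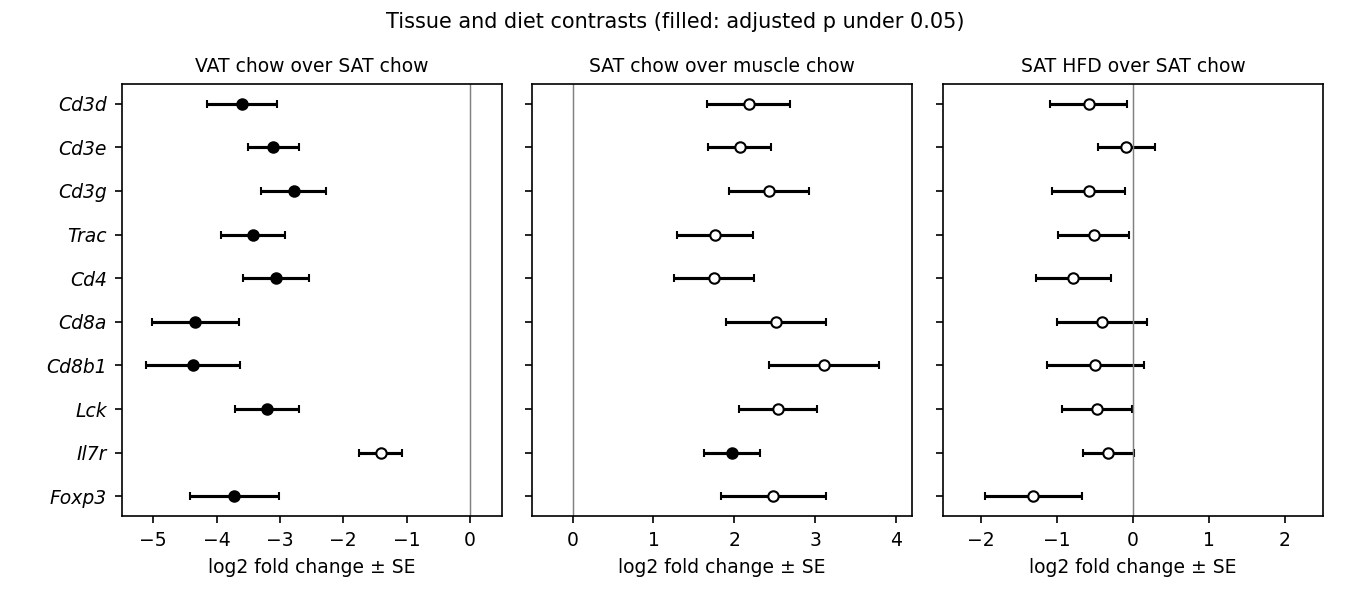
Log2 fold change of each T cell gene between tissues and diets, with bars of 1 standard error derived from the F statistic of the edgeR fit over all 8 libraries; filled points have an adjusted p under 0.05. In VAT against chow SAT 9 genes are filled and *Il7r* is open, in chow SAT against muscle only *Il7r* is filled, and in HFD SAT against chow SAT none is filled.

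For diet, no difference between HFD SAT and chow SAT passed the test in a T cell gene. edgeR called 0 of 10 members (0 at an unadjusted p under 0.05, DESeq2 0), and 0.0% of all genes. The log2 differences, HFD over chow, ran from -0.08 (SE 0.378) for *Cd3e* to -1.31 (SE 0.638) for *Foxp3*, with a median of -0.51 against -0.32 over all genes, and adjusted p from 0.584 to 0.962. *Cd4* was at -0.78 (SE 0.487). Under the 3 other scalings the members' median moved to between -0.26 and -0.19, and *Cd3e* turned positive (0.16 to 0.22). The SAT chow WT library decided the direction: without it 7 of the 10 differences turned positive, with *Cd8b1* at 0.85. Without SAT chow KO 1 member, *Cd3g*, was called (log2 difference -1.33, adjusted p = 0.0489).

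For genotype, edgeR called 0 of 10 T cell genes across the 4 pairs (0 at an unadjusted p under 0.05, DESeq2 0), where 0.00589% of all genes were called. The median log2 difference, KO over WT, was -0.34, against 0.03 over all genes, and the adjusted p was 0.9996 for each member. *Cd3g* had the lowest, -0.51 (SE 0.343, unadjusted p = 0.178), and *Il7r* the only positive one, 0.31 (SE 0.240), although *Cd3e* (0.070), *Trac* (0.0054) and *Cd8a* (0.058) also turned positive when library totals were used for scaling. Without the SAT chow pair 5 of the 10 were negative and the median was 0.05. Without the pairing by tissue and diet the median was -0.68 and the lowest -1.01.

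The pairs, each of 1 WT and 1 KO library, pointed different ways. The 10 genes summed to 1976 CPM (WT) and 2313 CPM (KO) in HFD SAT. In chow SAT they summed to 4198 and 2011 CPM, 2.09-fold lower in KO. It was 337 and 434 CPM in VAT, and 758 and 523 CPM in muscle. Within a pair there is no test, and a gene was called where its whole 95% counting interval (Clopper-Pearson, which covers counting error only) lay beyond 2-fold.

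In chow SAT, 6 of the 10 T cell genes were lower in KO beyond 2-fold, where 11.5% of all genes were lower and 19.1% higher. *Cd8b1* had 9262 counts in WT and 2230 in KO, a log2 ratio of -2.05 (95% interval -2.12 to -1.98). *Cd3g* had 6814 and 1897 counts, a log2 ratio of -1.84 (-1.92 to -1.77), and *Cd3d* had 6020 and 1768 counts, -1.76 (-1.84 to -1.69). *Lck* (-1.40), *Cd8a* (-1.34) and *Cd4* (-1.19) were the other genes called. *Trac* (-0.85), *Cd3e* (-0.86) and *Foxp3* (-0.76) lay within 2-fold with intervals below 0. *Il7r* went the other way, with 5076 counts in WT and 8407 in KO, a log2 ratio of 0.73 (0.68 to 0.78).

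Other properties of this pair differed along with the T cell genes. All 7 stromal markers were higher in KO beyond 2-fold (summed level 699 CPM in WT and 3273 CPM in KO), while 5 of 9 macrophage markers (856 and 434 CPM), all 5 neutrophil markers with enough counts in this pair (207 and 44.3 CPM for the list) and 4 of 6 NK cell markers (279 and 146 CPM) were lower beyond 2-fold. *Malat1* had a log2 ratio of 4.33 in chow SAT, against -0.47 to 0.26 in the other pairs. The ratio of KO to WT also ran with the exonic length given in the count table: over all genes tested the median log2 ratio was -0.49 for lengths from 1000 to 2000 bases and 0.56 above 6000 bases, and HFD SAT showed a trend in the same direction, with -0.48 up to 1000 bases, -0.25 from 1000 to 2000 and 0.07 above 6000. In VAT the medians were 0.11 from 1000 to 2000 bases and -0.10 above 6000, and in muscle -0.01 and 0.00. After the median of its length class was subtracted, *Cd3g* remained at -1.62, *Cd8b1* at -1.56, *Cd3d* at -1.27, *Cd4* at -1.23 and *Cd8a* at -1.12, and 5 of the 10 genes were still beyond 2-fold, *Lck* (-1.01) no longer. *Il7r* was at 0.70 on this scale. This correction was added after the data were seen, and the part of these properties in what remained was not tested.

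In HFD SAT, 0 of 10 T cell genes were beyond 2-fold (12.9% of all genes higher, 10.9% lower), and the largest log2 ratio was that of *Foxp3*, 0.83 (0.48 to 1.20) from 86 and 287 counts. *Cd3e* followed with 0.59 (0.49 to 0.69), then *Trac* with 0.54 (0.45 to 0.63) and *Il7r* with 0.52 (0.45 to 0.60). After subtraction of the median of the length class, *Trac*, the shortest member, was at 1.02 (0.93 to 1.11), above *Foxp3* at 0.85 (0.50 to 1.21), and 0 members were beyond 2-fold. The intervals of 7 members lay above 0 and that of *Cd8a* below (-0.17, interval -0.25 to -0.10). In VAT, 1 member was higher beyond 2-fold in the library labelled EC-*Tert*-KO (2.4% of all genes higher, 2.09% lower): *Cd8a*, with 84 and 398 counts and a log2 ratio of 1.64 (1.30 to 1.998). *Cd8b1* was at 1.14 (0.79 to 1.51) from 85 and 286 counts and *Trac* at 0.71 (0.48 to 0.94), and no interval lay below 0. In muscle, 2 members were lower in KO (2.01% of all genes lower, 2.76% higher). *Foxp3* had 211 and 53 counts, -1.72 (-2.19 to -1.29), and *Cd4* had 1818 and 606 counts, -1.32 (-1.46 to -1.19). The intervals of 9 muscle values lay below 0 and that of *Cd3e* spanned it (0.09, interval -0.05 to 0.24).

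**Figure D3:**
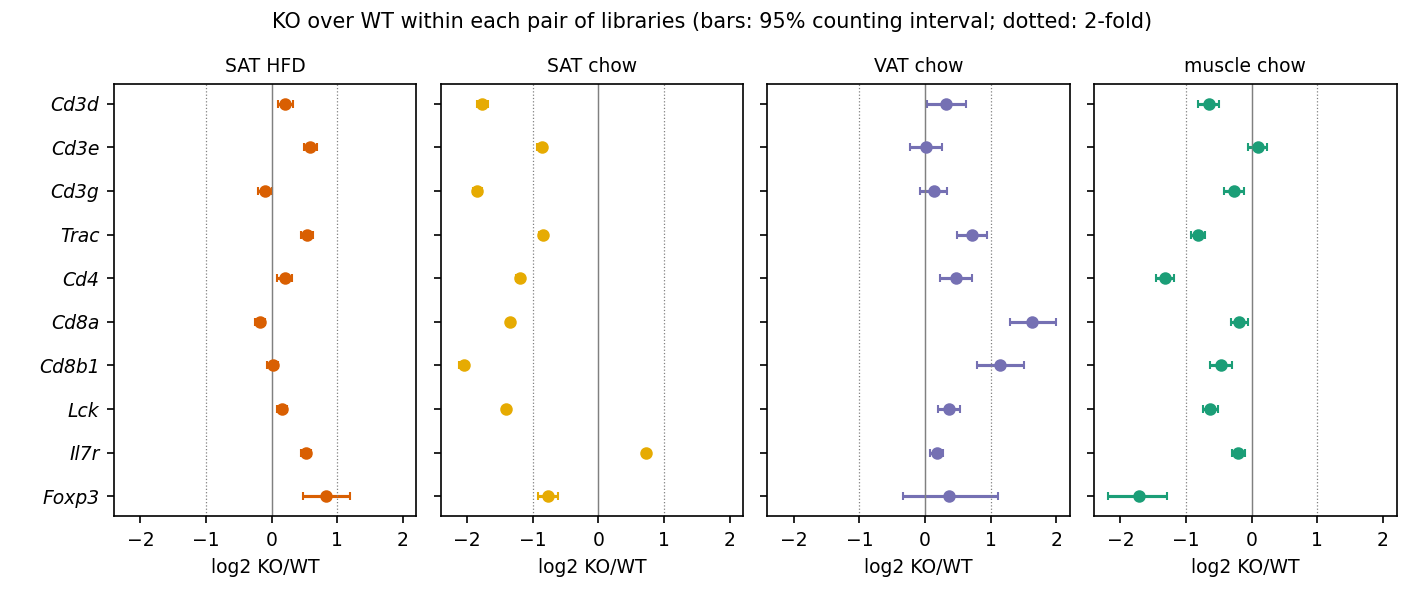
Log2 ratio of KO to WT for each T cell gene in the 4 pairs, with bars of the 95% counting interval and dotted lines at 2-fold. The SAT chow pair lies left of 0 except for *Il7r*, the VAT pair lies right of 0 with *Cd8a* beyond 2-fold, and in muscle *Cd4* and *Foxp3* lie left of the dotted line.

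Ratios between T cell genes within a library do not depend on the scaling. *Cd4* over *Cd8a*, per kb, was 0.374 and 0.483 in HFD SAT (WT and KO), 0.575 and 0.637 in chow SAT, 2.31 and 1.02 in VAT, and 1.37 and 0.625 in muscle. *Cd8a* therefore exceeded *Cd4* per kb in all 4 SAT libraries and in muscle KO, and *Cd4* exceeded *Cd8a* in VAT WT and muscle WT, while the interval of VAT KO (0.893 to 1.18) spanned equality. The ratio in KO was 1.29 times that in WT for HFD SAT (95% counting interval 1.18 to 1.42) and 1.11 times for chow SAT (1.04 to 1.18). It was 0.444 times that in WT for VAT (0.329 to 0.595) and 0.456 times for muscle (0.401 to 0.518). In VAT the KO library had the higher *Cd8a* level, and in muscle the lower *Cd4* level. None of the ratios between genes is corrected for the trend with exonic length. After the median of the length class was subtracted, the log2 ratio of KO to WT in chow SAT was -1.23 for *Cd4* and -1.12 for *Cd8a*. On that scale *Cd4* fell more than *Cd8a*, the reverse of the uncorrected 1.11. In HFD SAT the corrected values were 0.19 and -0.16, and the direction stayed.

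*Il7r* over *Cd3e*, per kb, was 1.43 and 1.37 in HFD SAT, 0.957 and 2.89 in chow SAT, 4.93 and 5.53 in VAT, and 1.88 and 1.54 in muscle. The VAT libraries were the highest of the 8, and in chow SAT the ratio in KO was 3.02 times that in WT (2.85 to 3.21). *Foxp3* over *Cd4*, per kb, was 0.0959 and 0.149 in HFD SAT, 0.161 and 0.216 in chow SAT, 0.122 and 0.114 in VAT, and 0.117 and 0.0884 in muscle. It was 1.55 times higher in KO for HFD SAT (1.20 to 2.03) and 1.35 times for chow SAT (1.20 to 1.51), and the intervals for VAT (0.554 to 1.60) and muscle (0.539 to 1.04) included 1. *Cd3g* over *Cd3d*, per kb, ran from 0.452 in muscle WT to 1.18 in VAT WT. The ratio in KO was 0.808 times that in WT for HFD SAT (0.725 to 0.899) and 1.31 times for muscle (1.12 to 1.52). These intervals cover counting error only, and whether the neighbours moved differently with genotype was not tested. *Foxp3* overlaps *Flicr*, *Gm36995* and *Ccdc22*, which had 117, 71 and 0 counts over all libraries against 2194 for *Foxp3*.

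**Figure D4:**
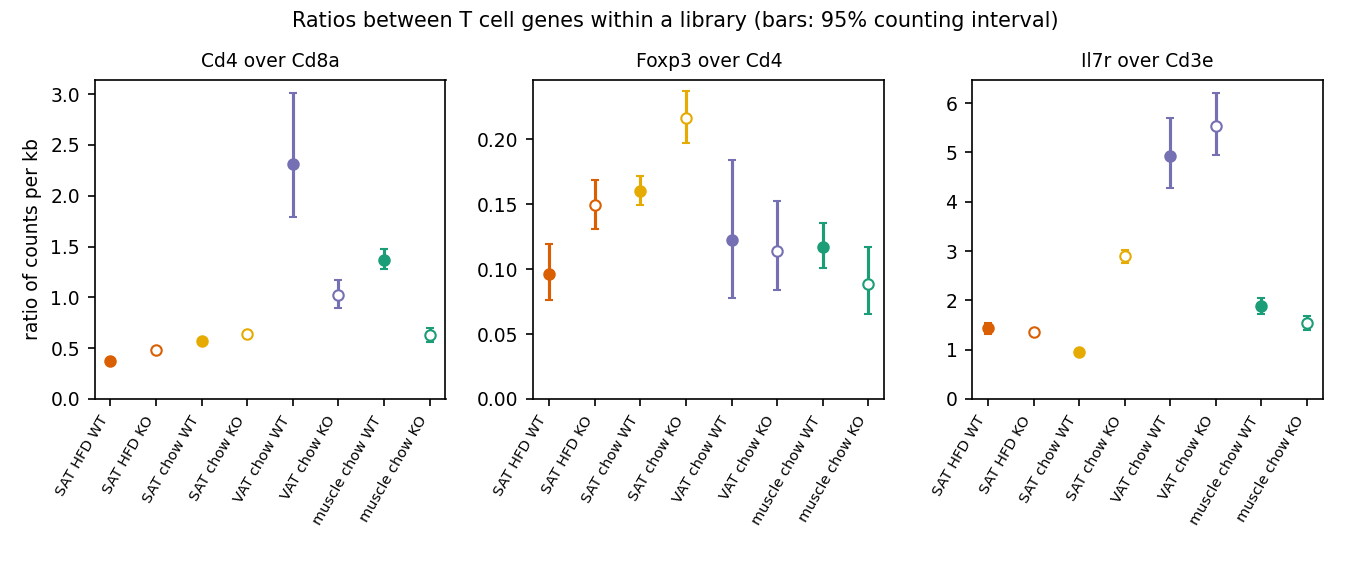
Ratio of counts per kb between T cell genes in each library, with bars of the 95% counting interval; filled points are WT and open points are EC-*Tert*-KO. *Cd4* over *Cd8a* is highest in VAT WT at 2.31, *Foxp3* over *Cd4* is highest in SAT chow KO at 0.216, and *Il7r* over *Cd3e* is highest in the VAT libraries.

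Other genes of the T cell receptor followed the members in part. Of the receptor chains, 2 of 4 in the table passed the test of the 4 conditions and 3 were lower in VAT than in chow SAT. *Trbc2*, the second beta constant region, was at 257 and 289 CPM in HFD SAT, 631 and 250.04 CPM in chow SAT, 26.8 and 41.1 CPM in VAT, and 101 and 77.6 CPM in muscle, but *Trbc1* and *Trbc2* are near-identical and the split of reads between them is uncertain. *Trdc*, the delta chain constant region, was at 63.0 and 47.3 CPM in VAT and 62.8 and 37.4 CPM in chow SAT (log2 difference 0.15, adjusted p = 0.860). Of 17 genes of receptor-proximal signalling, 11 passed the test of the 4 conditions and 11 were lower in VAT than in chow SAT, none higher. Among the genes of this list with the highest levels, *Ptpn22* (log2 difference -1.15, adjusted p = 0.297) and *Fyn* (-1.003, adjusted p = 0.109) did not pass this contrast.

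Of 11 transcription factors of the T lineage, 5 passed the test of the 4 conditions and 3 were lower in VAT than in chow SAT. *Tcf7*, which maintains naive and memory T cells, was among them, at 1064 and 572 CPM in chow SAT and 70.5 and 62.8 CPM in VAT (log2 difference -3.58, adjusted p = 0.00634). *Ets1* (-1.28, adjusted p = 0.160) and *Satb1* (-2.32, adjusted p = 0.0578) did not pass. Among 5 genes of naive T cells and trafficking, *Dapl1* was lower in VAT (7 and 2 counts) than in chow SAT (917 and 250 counts, adjusted p = 0.0125), with VAT KO under the floor of 3 counts, while *Ccr7* (-2.71, adjusted p = 0.0819) and *Klf2* (-0.50, adjusted p = 0.446) did not pass. Of 9 co-stimulatory and checkpoint genes, 2 were lower in VAT. *Cd27* fell by 2.56 (adjusted p = 0.00983) and *Ctla4* by 2.60 (adjusted p = 0.0391), whereas *Pdcd1*, the inhibitory receptor PD-1, was at 34.6 and 41.1 CPM in VAT and 14.5 and 22.8 CPM in chow SAT (log2 difference 1.03, adjusted p = 0.262).

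Lists tied to effector and regulatory functions did not follow the members between VAT and chow SAT. Between chow SAT and muscle their differences ran the members' way. There 6 of 10 cytotoxic effector genes were higher in SAT at an unadjusted p under 0.05 and 0 lower (edgeR called 1, DESeq2 4). For the 10 genes of regulatory T cells it was 4 higher and 0 lower (edgeR called 0, DESeq2 2). Of 10 cytotoxic effector genes, edgeR called 0 lower in VAT than in chow SAT (0 at an unadjusted p under 0.05, DESeq2 0) and 1 higher: *Gzma*, at 180 and 132 CPM in VAT and 61.7 and 31.9 CPM in chow SAT (log2 difference 1.81, adjusted p = 0.0215). *Gzmb* (1.08, adjusted p = 0.179) and *Prf1* (0.52, adjusted p = 0.542) passed the test of the 4 conditions but not this contrast. Of 10 genes of regulatory T cells, 1 was lower in VAT and 2 higher. *Tnfrsf4* (OX40) fell by 3.497 (adjusted p = 0.0180) with *Foxp3*, while *Il10* (4.17, adjusted p = 0.0163) and *Il1rl1* (3.53, adjusted p = 0.0133), which other cells also express, were higher in VAT. *Il1rl1* is also on the list of innate lymphoid cell markers. Of 9 partners of the IL-7 receptor, 0 passed the edgeR test of the 4 conditions (3 at an unadjusted p under 0.05, DESeq2 2), with *Il2rg*, the shared gamma chain, at 518 and 269 CPM in chow SAT and 129 and 139 CPM in VAT (log2 difference -1.51, adjusted p = 0.0799).

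In the SAT chow pair, T cell genes outside the members split. *Trbc2* (log2 ratio -1.33) and *Cd247* (-1.13) were lower in KO beyond 2-fold, whereas *Cd28* (1.87), *Ctla4* (1.61), *Icos* (1.52) and *Ptpn22* (1.85) were higher. These ratios are not corrected for exonic length. *Cd28* (6122 bases) and *Ptpn22* (6775 bases) lie in the length class whose median was 0.56 in this pair. *Ctla4* (2330 bases) and *Icos* (3430 bases) lie in classes with medians of -0.39 and -0.22. Of 9 co-stimulatory and checkpoint genes 3 were higher and 0 lower beyond 2-fold, and of 17 genes of receptor-proximal signalling 2 were higher and 3 lower. Genes of T cells thus moved in both directions in this pair, among all genes of which 19.1% were higher and 11.5% lower.

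Markers of other cells moved with tissue beside the T cell genes. The 8 B cell markers summed to 1433 to 2376 CPM in SAT, 163 to 168 CPM in VAT and 974 to 1031 CPM in muscle, and all 8 were lower in VAT than in chow SAT. The 9 macrophage markers summed to 189 to 856 CPM in SAT, 8085 to 8198 CPM in VAT and 343 to 716 CPM in muscle, and all 9 were higher in VAT than in chow SAT. The 6 neutrophil markers summed to 44 to 207 CPM in SAT, 212 to 247 CPM in VAT and 20368 to 24305 CPM in muscle. Muscle also held *Rag1* (25.3 and 41.9 CPM) and *Dntt* (15.4 and 23.2 CPM), genes of lymphocyte precursors, while *Ptcra*, the pre-T cell receptor alpha chain, was at no more than 0.2 CPM in any library. The 5 pan-leukocyte markers summed to 3668 to 8076 CPM over the 8 libraries, and 0 of them passed the edgeR test of the 4 conditions (0 at an unadjusted p under 0.05, DESeq2 0). Between VAT and chow SAT edgeR called 0 of the 5, with 2 lower in VAT at an unadjusted p under 0.05 (DESeq2 called 1 lower).

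Relative to *Ptprc*, the summed T cell genes were 0.789 to 1.96 times its level in SAT, 0.405 to 0.507 times in muscle and 0.231 to 0.353 times in VAT, so the order of tissues was the same on this scale. Innate lymphoid cells and NK cells share *Il7r* or the cytotoxic genes with T cells. The 7 markers of group 2 innate lymphoid cells summed to 84 to 255 CPM in SAT, 669 to 830 CPM in VAT and 113 to 199 CPM in muscle, with 1 (*Il1rl1*) called higher in VAT than in chow SAT. The 6 NK cell markers summed to 146 to 279 CPM in SAT, 194 to 200 CPM in VAT and 50 to 65 CPM in muscle. The 7 dendritic cell markers summed to 169 to 373 CPM in SAT, 531 to 534 CPM in VAT and 158 to 221 CPM in muscle, and 1 of them (*Cd209a*) was called higher in VAT. The 7 stromal markers summed to 566 to 3273 CPM over all libraries, and 0 passed the edgeR test of the 4 conditions (0 at an unadjusted p under 0.05, DESeq2 0). Their sum was higher in KO in every pair: 1854 and 1962 CPM in HFD SAT, 699 and 3273 CPM in chow SAT, 893 and 2105 CPM in VAT, and 566 and 1254 CPM in muscle. Beyond 2-fold, 7 of 7 were higher in KO in chow SAT, 4 of 7 in VAT, 4 of 7 in muscle and 0 in HFD SAT, where the median log2 ratio of the 7 was -0.15, and the part of these markers in the T cell values was not tested. For genotype across the pairs edgeR also called 0 of these 7 (6 at an unadjusted p under 0.05, DESeq2 0). Of the lymph node stroma and high endothelium, *Glycam1* was at 114 and 32.4 CPM in chow SAT, 4.6 and 7.0 CPM in HFD SAT, 26.8 and 47.1 CPM in muscle and at most 0.1 CPM in VAT. *Cxcl13* had its highest level in VAT WT (34.0 CPM, against 0.15 to 6.02 CPM in the other 7 libraries). *Ccl21a* was at 5.55 CPM in VAT WT, 5.32 CPM in chow SAT WT and 4.35 CPM in muscle KO, and at most 1.80 CPM elsewhere. *Ccl19* had no counts. The names *Ccl21a* and *Ccl19* each stand for more than 1 entry, and the values are those of the first. The part of these other cells in the level of the T cell genes was not tested.

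**Figure D5:**
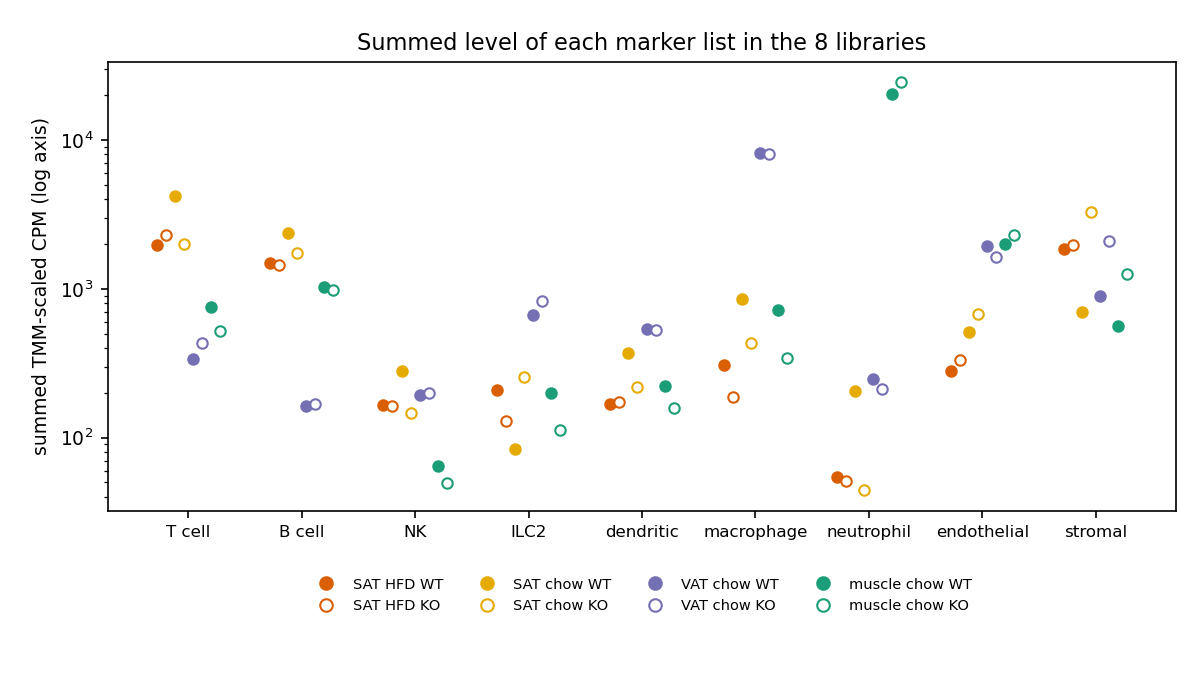
Summed level of each marker list in the 8 libraries, in TMM-scaled CPM on a log axis; filled points are WT and open points are EC-*Tert*-KO. T cell and B cell genes are highest in SAT and lowest in VAT, macrophage markers are highest in VAT and neutrophil markers in muscle.

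Among the genes whose pattern over the 8 libraries was most like the mean of the standardized members were *Lat* (Pearson r = 0.996), *Cd5* (0.994) and *Trbc2* (0.993), given as a description over 8 libraries that share depth and tissue. *Lat*, the adaptor phosphorylated after receptor engagement, was at 493 and 214 CPM in chow SAT, 235 and 249 CPM in HFD SAT, 41.7 and 48.7 CPM in VAT, and 87.2 and 66.8 CPM in muscle. Of the members themselves, *Lck* was the closest to that mean (0.994), *Foxp3* was at 0.953, and *Il7r* was the least like it (0.785).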

How the data were processed

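RNAseq was done on mG+ cells in 8 libraries. The authors deposited counts per Ensembl gene, whole numbers with no normalization, with exonic gene length. Per the labels, RNA was isolated with a column kit and libraries made with a SMARTER mRNA kit, whereas the methods give Trizol. The submitters' processing notes name HISAT2 2.0.5 and GRCm38. The counting program, strand and read length are not given in the sources used here.

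Libraries were scaled by TMM over all genes. Genes averaging at least 10 counts were tested with edgeR 4.0.16 (quasi-likelihood, robust, condition and genotype as additive terms, Benjamini-Hochberg at 0.05), in R 4.3.3. Each SE was derived as the absolute log2 difference divided by the square root of the F statistic, since the fit itself reports none. KO and WT libraries were paired by tissue and diet. Deviations from genotype means correlated within every pair (r = 0.344, 0.120, 0.687 and 0.637 for HFD SAT, chow SAT, VAT and M). However, SAT libraries of different diets also correlated (0.309 and 0.280), more strongly than the 2 libraries of the chow SAT pair. Within a pair, log2 ratios used a prior count of 0.5 and Clopper-Pearson intervals (scipy 1.17.1). Alternatives were other scalings and filters, DESeq2 1.42.0, no genotype term, no block, each library left out, and a correction for length.

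The members and all lists were chosen with earlier results of these data known. Besides the members, up to 3 genes of each list with the highest level, genes of a list where up to 3 passed, and the 5 genes most like the members were to be named; some of these are not reported here. *Trdc*, *Ccl19*, *Ptcra*, *Malat1* and genes that overlap a member were named outside this rule, with values seen. A name given to more than 1 of the 54532 genes (102 names, *Ccl19* and *Ccl21a* among them) was taken by its first entry.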

Additional observations from a re-analysis of the deposited data

Results flagged for a closer look

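*Cd8a* is flagged because its ratio of KO to WT went opposite ways beyond 2-fold in 2 tissues on the same diet. The log2 ratio was -1.34 in chow SAT and 1.64 in chow VAT. Since each value compares 1 WT with 1 KO library, this difference was not tested. The VAT value rests on 84 counts in WT and 398 in KO, and *Tert* counts in VAT were not lower in the library labelled EC-*Tert*-KO (3 and 9). The SAT chow WT library had 299 CPM of *Malat1* against 6005 CPM in its KO partner, and the part of this in the ratio was not tested. After the median of its length class was subtracted, the log2 ratios of *Cd8a* were -1.12 and 1.59.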

How the results depend on the processing

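All 10 members passed the test of the 4 conditions under every other scaling, filter and model, and 4 to 10 passed with 1 library left out (4 without VAT WT, 6 without SAT HFD KO). VAT was called lower than chow SAT in 9 or 10 members under the other settings and in 0 to 10 with 1 library left out. Higher levels in chow SAT than in muscle were called in 0 members with DESeq2 size factors, library totals or upper quartile scaling, 3 with a mean of at least 50 counts, 5 with no genotype term, 10 with DESeq2, 10 with no filter, and 0 to 9 with 1 library left out (9 without SAT chow KO); the cause was not tested. VAT against muscle gave 2 calls with DESeq2, 5 with no filter and 0 to 2 with 1 library left out, where *Cd3g* ran from -0.84 to 0.023 (the latter without VAT WT). Diet gave 0 calls in all other settings and 0 to 1 with 1 library left out (1 without SAT chow KO).

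Some directions turned. For diet, *Cd3e* was at 0.16 with DESeq2 size factors and with DESeq2, 0.22 with library totals and 0.21 with upper quartile scaling. With 1 library left out, the log2 difference ran from -1.33 to 0.38 for *Cd3d*, -0.60 to 0.50 for *Cd3e*, -1.33 to 0.43 for *Cd3g*, -0.99 to 0.0027 for *Trac*, -1.09 to 0.60 for *Cd8a*, -1.38 to 0.85 for *Cd8b1* and -1.09 to 0.28 for *Lck*, each highest without SAT chow WT and lowest without SAT chow KO. For genotype, library totals gave 0.070 for *Cd3e*, 0.0054 for *Trac* and 0.058 for *Cd8a*. With 1 pair left out it ran from -0.26 to 0.24 for *Cd3e*, -0.38 to 0.14 for *Trac*, -0.56 to 0.35 for *Cd8a* and -0.82 to 0.19 for *Cd8b1*, each highest without the SAT chow pair, and from -0.74 to 0.13 for *Foxp3*, highest without the muscle pair. The genotype test gave 0 calls in every setting; without the replicate block, that is, without the pairing by tissue and diet, it also gave 0, with the members' median at -0.68 against -0.34. Counts of members beyond 2-fold within a pair stayed within 1.5 times under all settings, including the length correction chosen after seeing the data. With 2 libraries per condition, 1 of each genotype, large differences could also miss the threshold, such as that of *Cd8b1* between chow SAT and muscle. The counts of 0 for genotype and diet therefore do not show that changes were absent. *Foxp3* in VAT was also limited by its 26 and 51 counts.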
